A study of Mus musculus with 12 samples.

Results

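The genes described here make up the anti-oxidant defence that the transcription factor NRF2 serves: its regulators, the enzymes of glutathione and thioredoxin metabolism, detoxifying enzymes, haem breakdown, the removal of superoxide and hydrogen peroxide, and the production of NADPH. The list holds 43 named genes of the known pathway. Of these, 38 had a probe set that names 1 gene, among 18194 such genes on the array, and 37 reached a mean signal of 50 in some condition and were tested, among 12071 genes tested. The 37 could thus pass the minimum through any condition. Prdx1 and Esd had only probe sets shared with another gene, Prdx5, Prdx6 and G6pdx had no probe set named for them here, and Gsta4, a glutathione transferase, had signals between 41.6 and 54.9 and fell under the minimum.

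In resting cells KEAP1 holds NRF2 in the cytosol and hands it over for degradation. Electrophiles and oxidants modify KEAP1, NRF2 then enters the nucleus, pairs with small MAF proteins and binds anti-oxidant response elements, where the repressor BACH1 competes with it. Its targets make and recycle glutathione and thioredoxin, conjugate reactive compounds and supply the NADPH on which both reducing systems run, and in microglia they face the oxidants that the NADPH oxidase and the inducible nitric oxide synthase release.

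BV-2 cells are mouse microglia immortalized by oncogenes. The cells were left untreated (control) or were kept for 24 h with 50 µM luteolin, a plant flavonoid dissolved in DMSO, with 50 ng/ml LPS, the bacterial endotoxin sensed by Toll-like receptor 4, or with both, and 3 Affymetrix expression arrays of independent RNAs were run per condition, 12 in all. The label's extraction text names another line, PUER, but the remaining labels and the methods give BV-2, as used here. Whether the control cultures received DMSO is not given in the sources used here.

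The authors' RMA algorithm gave 1 linear intensity per probe set and array and set all arrays to a common distribution, so a shift common to most genes would be hidden. The array medians lay between 52.2 and 56.4, and within a group r was 0.978 to 0.996 between arrays across the probe sets. Arrays with the same replicate number deviated from their group means together (r from 0.101 to 0.591 in 18 pairs), so a second fit, blocked on this number, is given where it changes a call. All 9 microglia markers reached a mean signal of 50 in some condition, with summed signals of 26518 to 35650, although the homeostatic markers Tmem119, P2ry12 and Cx3cr1 were close to this minimum. Of the markers of other cells, 1 of 5 for astrocytes, 2 of 5 for neurons, 1 of 5 for fibroblasts and 3 of 4 for oligodendrocytes reached it. The oligodendrocyte sum, which is mostly Cnp, lay between 1354 and 2422 in control, 1238 and 1994 in luteolin, 1380 and 1594 in LPS and 853 and 1263 in luteolin + LPS arrays, with Mog under 50 throughout, and its part in the results was not tested.

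The start regions of the genes show which of them carry the core of the anti-oxidant response element close to the start. The core TGACNNNGC was searched on both strands, allowing overlap, from 250 bases before to 50 bases after each start in RefSeq promoters (GRCm38.p6). It occurred in 12.4% of 32851 promoters of this length and in 14.0% of 27025 genes. Of the 33 tested members with a promoter entry, 9 held it: Nfe2l2, Gclm, Txnrd1, Srxn1, Mgst1, Blvra, Sod1, Pgd and Me1. Gclc, Gsr, Abcc1 and Hmox1 had no entry. Of 13 members with an entry that passed the test for higher expression with luteolin in the fit with the replicate block, 6 held the core, and of the other 20, 3 did. A gene was counted if any of its listed starts held the core, and genes differ in the number of listed starts. These groups were not matched for that number, and the difference between them was not tested. The windows of these 6 called members are printed to show where the core lies, 5′ to 3′ on the gene's strand and with the core in capitals, as TGACNNNGC or as its reverse complement:
Gclm (chr3:122245383-122245471, plus strand, core starting 134 bases before the start): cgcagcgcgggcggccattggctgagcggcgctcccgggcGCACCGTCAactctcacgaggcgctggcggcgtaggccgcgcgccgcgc
Txnrd1 (chr10:82859074-82859162, plus strand, 92 bases before 1 of 3 listed starts): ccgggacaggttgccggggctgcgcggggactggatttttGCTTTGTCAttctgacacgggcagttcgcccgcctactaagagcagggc
Mgst1 (chr6:138140431-138140519, plus strand, 56 bases before 1 of 2 listed starts): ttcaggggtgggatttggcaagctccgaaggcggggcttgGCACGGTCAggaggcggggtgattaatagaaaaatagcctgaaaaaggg
Me1 (chr9:86695902-86695930, minus strand, 6 bases before 1 of 2 listed starts): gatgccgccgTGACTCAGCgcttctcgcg
Srxn1 (chr2:152105542-152105570, plus strand, core starting at position 29 counted from the start): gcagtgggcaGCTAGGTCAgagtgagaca
Pgd (chr4:149166061-149166089, minus strand, core starting at position 4 counted from 1 of 2 listed starts): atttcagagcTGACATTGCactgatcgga
A match of letters is a description of these windows and not a binding site, and binding was not measured.

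LPS replicate 1 stood apart from its group in these genes. The median of the members lay 0.40 above the control mean on the log2 scale in this array, and 0.07 and 0.02 above it in LPS replicates 2 and 3. Its signal was the highest of the 3 LPS arrays for 25 of the 37 members (67.6%), and for 39.1% of all genes. The members concerned include Gclm, Srxn1, Blvrb and Slc7a11, whose values follow, and Taldo1, a pentose phosphate enzyme, with signals of 7386, 2994 and 2968 in the LPS arrays. What sets this array apart was not tested.

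Luteolin raised 7 of the 37 members and lowered none when its effects without and with LPS were averaged, with limma's adjusted p below 0.05. They were Gclc, Gsr, Txnrd1, Nqo1, Mgst1, Pgd and Idh1, which stand for glutathione synthesis, glutathione and thioredoxin reduction, detoxification and NADPH production. Nqo1 reached the minimum signal only through the groups with luteolin, so its call adds no support, and the other 6 reached it without luteolin too. The part of Nqo1 in the other luteolin counts here, for the block, non-overlapping arrays, same-number pairs and the promoter core, adds none either. Here and below, values in brackets are limma's standard error (SE) and p adjusted over all genes tested. Over all genes, 1.16% were called higher and 1.92% lower in this comparison. With the replicate number as a block, 15 members were higher and none lower, beside 3.89% and 6.22% of all genes, and Gclm, Txn1, Srxn1, Prdx4, Blvrb, Cat, Taldo1 and Me1 were added. In bulk RNA, fewer cells of a kind and less RNA per cell cannot be told apart, and the p-values measure the spread between these arrays. The median log2 fold change of the 37 members was 0.31, against 0.005 over all genes. Of the 37, 32 lay above 0, against 51.0% of all genes. The members were chosen with earlier results of these data known, so these differences are a description only. In the 3 replicate numbers the members' median was 0.14, 0.43 and 0.38. In 15 members all 6 pairs of arrays with the same number were higher with luteolin, and in 1, Sod2, all 6 were lower, beside 8.43% and 10.2% of all genes. The number called was 4 without luteolin replicate 3 and 14 without LPS replicate 1. With all 4 arrays of a number left out and the block kept, it was 20 without replicate 1 and 0 without replicate 2 or 3. The share of all genes called was not counted in fits with arrays left out, here or below.

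Separately, limma called 0 of the 37 members in resting microglia (luteolin versus control), as it called 0.00% of all genes in either direction, with 14 members and 1097 genes at an unadjusted p under 0.05. With the block, Mgst1 and Cat were higher, beside 0.0828% of all genes higher and 0.199% lower. The arrays of 17 members did not overlap and were higher with luteolin, against 8.29% of all genes, and those of Sod2 were lower, against 11.3%. In LPS-treated microglia (luteolin + LPS versus LPS), Gsr and Idh1 rose and none fell, beside 0.149% of all genes higher and 0.356% lower. With the block, 8 rose and none fell, beside 1.95% and 2.84%, the additions being Gclc, Gclm, Txnrd1, Nqo1, Blvrb and Pgd. Here 12 members did not overlap and were higher, against 8.04% of all genes. The count of 2 without the block was 5 without LPS replicate 1, 1 without control replicate 2 or 3, any 1 luteolin array or LPS replicate 2, and 0 without LPS replicate 3 or luteolin + LPS replicate 2 or with only the groups compared. The luteolin comparisons share replicate numbers but no array. In both, Gclc, Gsr, Txnrd1, Prdx4, Nqo1, Pgd and Idh1 were higher without overlap, 7 members against 2.40% of all genes. Nqo1, which reached the minimum signal only with luteolin, is among these and adds no support.

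**Figure D1:**
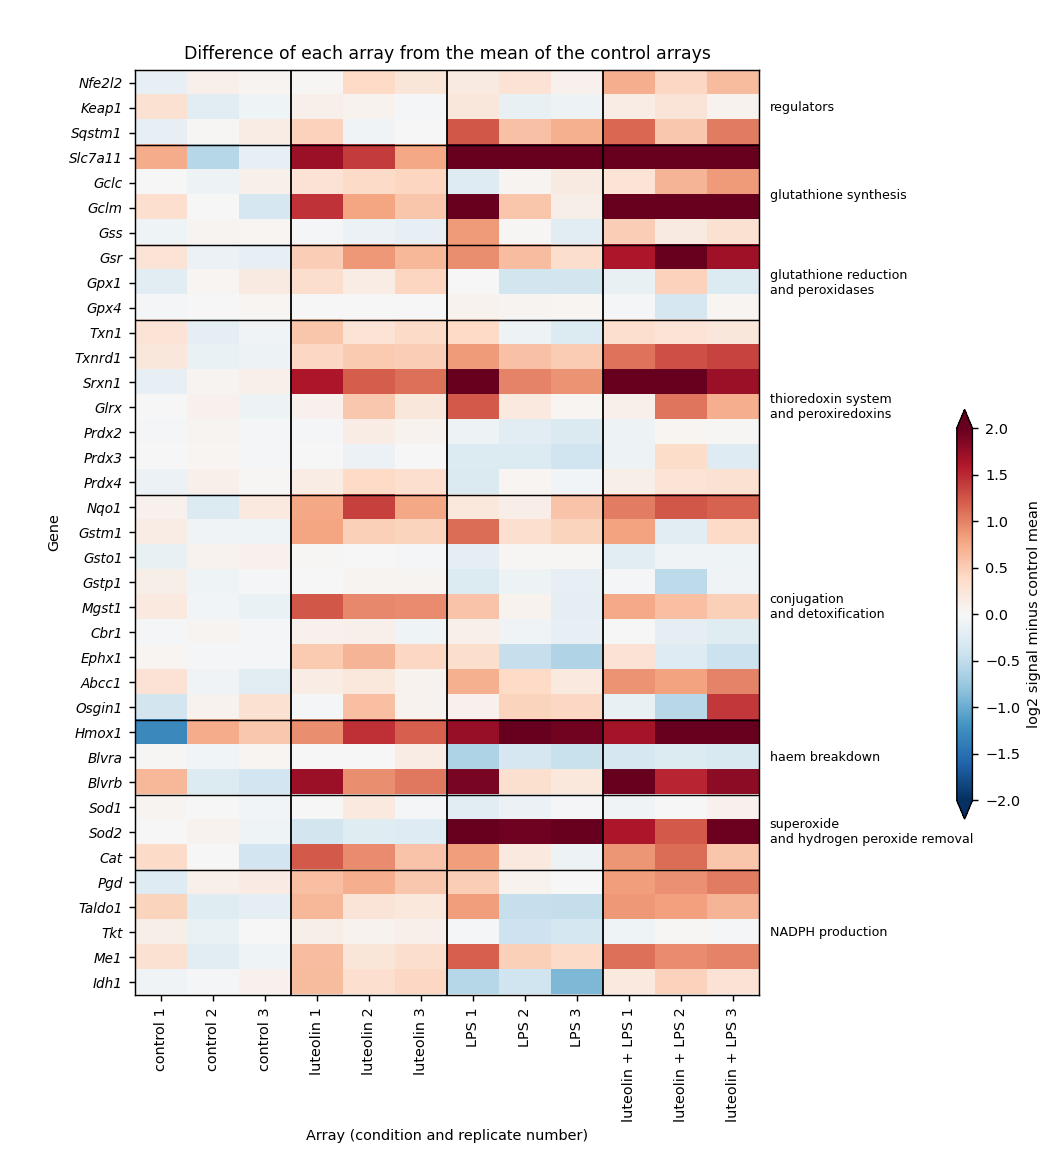
Difference of the log2 signal of each array from the mean of the 3 control arrays, for the 37 tested members in rows, grouped by role, and the 12 arrays in columns; the colour scale ends at -2 and 2. The luteolin columns are mostly red, the median of the members lying between 0.33 and 0.35 in the 3 luteolin arrays and between 0.47 and 0.55 in the 3 luteolin + LPS arrays, and LPS replicate 1 (0.40) is redder than LPS replicates 2 (0.07) and 3 (0.02).

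Of the regulators, Nfe2l2, which encodes NRF2 itself, had signals of 2332, 2802 and 2727 in the control arrays, 2669, 3449 and 3075 with luteolin, 2958, 3192 and 2767 with LPS and 4312, 3478 and 4062 with both. The luteolin + LPS arrays were all above the LPS arrays, while the luteolin and control arrays overlapped. With luteolin the log2 fold change was 0.31 (SE 0.09, adjusted p = 0.103) over both backgrounds, 0.22 in resting and 0.41 in LPS-treated microglia, and none of these passed the test without the block or with it (adjusted p = 0.0657 over both backgrounds with the block). Over both backgrounds Nfe2l2 was higher in all 6 same-number pairs and passed with the replicate number as a random block (adjusted p = 0.0483) and with array weights (adjusted p = 0.0255). Its other, dimmer probe set, with a mean signal of 123, gave -0.13 in resting and 0.98 in LPS-treated microglia, and 0.42 over both backgrounds. Keap1, which encodes the sensor, had 0.11 (SE 0.11, adjusted p = 0.651), and Sqstm1, the autophagy receptor p62 that displaces NRF2 from KEAP1, had 0.10 (SE 0.16, adjusted p = 0.795). Sqstm1 was higher in every LPS array than in every control array, by 0.84 (SE 0.22, adjusted p = 0.0569), and passed the test with the block (adjusted p = 0.0182). A further, dimmer probe set of Sqstm1, with a mean signal of 82.6, gave a luteolin difference of -0.89 in LPS-treated microglia where the brighter one gave 0.06.

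In glutathione synthesis, both subunits of the rate-limiting glutamate-cysteine ligase had higher means with luteolin. Gclc, the catalytic subunit, had signals of 877, 823 and 942 in the control arrays, 1073, 1147 and 1188 with luteolin, 731, 916 and 992 with LPS and 1062, 1406 and 1588 with both. No array with luteolin overlapped with its counterpart group. It rose by 0.49 (SE 0.11, adjusted p = 0.0451) over both backgrounds, the call being lost, at adjusted p-values of 0.0548 to 0.123, without any 1 array other than luteolin + LPS replicate 1. The call was also lost in limma with array medians set equal (adjusted p = 0.0661) and without the filter on dim genes (adjusted p = 0.0506). Gclm, the modifier subunit, had signals of 496, 391 and 313 in the control arrays, 1075, 682 and 578 with luteolin, 1737, 576 and 424 with LPS and 2329, 2394 and 1623 with both. The luteolin arrays lay above the control arrays, and LPS replicate 1 lay above the lowest luteolin + LPS array, the other LPS arrays below it. Over both backgrounds Gclm had the largest log2 fold change of the members, 1.20 (SE 0.32, adjusted p = 0.0666), with an adjusted p of 0.00928 with the block and of 0.00656 without LPS replicate 1. A further probe set of each gave 0.52 for Gclc and 1.45 for Gclm.

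Slc7a11, the cystine importer that feeds this pathway, had signals of 106, 43 and 56.6 in the control arrays, 210.2, 167 and 108 with luteolin, 1519, 262 and 299 with LPS and 523, 488 and 638 with both. Every luteolin array lay above every control array, and every LPS array above both, with LPS replicate 1 far above the others. Luteolin gave a log2 fold change of 1.29 (SE 0.58, adjusted p = 0.545) in resting microglia and 0.15 (SE 0.58, adjusted p = 0.942) in LPS-treated microglia, the latter being 0.96 (adjusted p = 0.232) without LPS replicate 1. Over both backgrounds it was 0.72 (SE 0.41, adjusted p = 0.382), and 1.13 (adjusted p = 0.0305) without LPS replicate 1. Gss, glutathione synthetase, which adds glycine in the last step, had -0.11 in resting and 0.10 in LPS-treated microglia, and its groups overlapped in both.

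Glutathione reductase, Gsr, which uses NADPH to regenerate glutathione, had signals of 330.1, 251 and 243 in the control arrays, 382, 497 and 432 with luteolin, 518, 418 and 346 with LPS and 834, 1330.1 and 882 with both. All luteolin arrays lay above all control arrays, and all luteolin + LPS arrays above every other array. It rose by 0.96 (SE 0.15, adjusted p = 0.0141) over both backgrounds. In LPS-treated microglia it rose by 1.24 (SE 0.21, adjusted p = 0.0390), which was lost without control replicate 2 or 3, any 1 luteolin array, LPS replicate 2 or 3 or luteolin + LPS replicate 2 (adjusted p from 0.0551 to 0.134). A further probe set gave 1.01 over both backgrounds. Of the peroxidases that spend glutathione, Gpx1 had 0.29 (SE 0.14, adjusted p = 0.285) and Gpx4, which removes lipid peroxides, -0.08 (SE 0.08, adjusted p = 0.636), with a 95% interval of -0.25 to 0.09.

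In the thioredoxin system, Txnrd1, the cytosolic thioredoxin reductase, had signals of 2304, 1799 and 1845 in the control arrays, 2635, 2827 and 2774 with luteolin, 3537, 2969 and 2812 with LPS and 4205, 4817 and 5053 with both. The groups with luteolin did not overlap with their counterparts, and the arrays with both treatments were the highest. Luteolin raised it by 0.54 (SE 0.09, adjusted p = 0.0188) over both backgrounds, with adjusted p-values of 0.0513 and 0.0616 without luteolin replicate 2 or 3. Txn1, thioredoxin, had 0.34 (SE 0.13, adjusted p = 0.168), passing with the block (adjusted p = 0.0416). Srxn1, sulfiredoxin, which repairs over-oxidized peroxiredoxins, had signals of 451, 525 and 540.0 in the control arrays, 1552, 1162 and 1076 with luteolin, 2531, 1003 and 936 with LPS and 3136, 2030.2 and 1664 with both. In resting microglia the luteolin arrays lay above the control arrays without overlap. With LPS, replicate 1 of the LPS group overlapped with the luteolin + LPS arrays. Its log2 fold change was 1.01 (SE 0.25, adjusted p = 0.0549) over both backgrounds, with adjusted p = 0.0145 with the block and 0.00677 without LPS replicate 1, and 3 further probe sets gave 0.31 to 0.93.

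The peroxiredoxins themselves had small differences. Prdx4, the peroxiredoxin of the endoplasmic reticulum, was higher with luteolin without overlap on both backgrounds and had 0.31 (SE 0.09, adjusted p = 0.0805), passing with the block (adjusted p = 0.0158). Of its other probe sets, those with mean signals of 2081 and 284 gave 0.14 and 0.20 over both backgrounds and 0.05 and 0.09 in LPS-treated microglia, where the brightest gave 0.34, and one near the minimum, with a mean signal of 54.2, gave 0.45 and 0.61. Prdx2 had 0.13 (SE 0.07, adjusted p = 0.357) and Prdx3, the mitochondrial form, 0.14 (SE 0.10, adjusted p = 0.506). Both were higher without overlap in luteolin + LPS than in LPS arrays, at 0.19 and 0.32, and neither passed the test. Glrx, glutaredoxin, had 0.21 (SE 0.22, adjusted p = 0.658).

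Among the detoxifying enzymes, Nqo1, the quinone reductase often read as an NRF2 reporter, had signals of 42.5, 33.2 and 46 in the control arrays, 69, 103 and 68.7 with luteolin, 46.6, 43.9 and 59.8 with LPS and 82.1, 94.6 and 91.5 with both. Every array with luteolin lay above every array without it, while the 3 control arrays and LPS replicates 1 and 2 were under the minimum signal of 50. Nqo1 rose by 0.91 (SE 0.14, adjusted p = 0.0113) over both backgrounds, or by at least 0.70 (adjusted p = 0.0142) with signals under 50 set to 50. Mgst1, a membrane-bound glutathione transferase and peroxidase, had signals of 4558, 3823 and 3615 in the control arrays, 9393, 7712 and 7694 with luteolin, 5901, 4193 and 3482 with LPS and 6696, 6069 and 5536 with both. The luteolin arrays lay highest, at about 2 times the control arrays, and the luteolin + LPS arrays were above LPS replicates 2 and 3 and overlapped with replicate 1. It rose by 0.75 (SE 0.13, adjusted p = 0.0186) over both backgrounds (adjusted p = 0.0529 without luteolin replicate 3), and with the block it also passed in resting microglia at 1.05 (adjusted p = 0.0154).

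The other 7 genes of this role did not pass the test for luteolin in either fit. Gstm1, a cytosolic glutathione transferase, was higher with luteolin than in control in all arrays, with a log2 fold change of 0.57 (adjusted p = 0.553), and lower in each same-number pair with LPS, with -0.31 (adjusted p = 0.644). Gstm1 belongs to a family of close relatives, and its probe set may read more than 1 of them. Ephx1, the microsomal epoxide hydrolase, was also higher without overlap in resting microglia, by 0.54, and had 0.10 with LPS. Abcc1, an exporter of glutathione conjugates, had 0.14 and, without overlap, 0.46. Gsto1, Gstp1 and Cbr1 lay between -0.03 and 0.01 over both backgrounds, and Osgin1, whose arrays spread most in this role, had 0.07 (SE 0.29, adjusted p = 0.932).

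In haem breakdown, Blvrb, biliverdin reductase B, had signals of 1697, 884 and 823 in the control arrays, 3498, 2033 and 2223 with luteolin, 3990.5, 1342 and 1240.3 with LPS and 4849, 3069 and 3719 with both. The luteolin arrays lay above the control arrays, and LPS replicate 1 lay within the range of the luteolin + LPS arrays, the other LPS arrays below it. Its log2 fold change over both backgrounds was 1.12 (SE 0.31, adjusted p = 0.0788), with adjusted p = 0.00521 with the block and 0.0135 without LPS replicate 1. Hmox1, haem oxygenase 1, the stress-inducible enzyme that opens the haem ring, had signals of 567, 2305 and 2005 in the control arrays, 2623, 3797 and 3157 with luteolin, 4629, 6455 and 5261 with LPS and 4374, 8137 and 7327 with both. Control replicate 1 lay far below the other control arrays, and the luteolin arrays were above all of them. Luteolin gave 1.20 (SE 0.45, adjusted p = 0.446) in resting and 0.24 (SE 0.45, adjusted p = 0.864) in LPS-treated microglia, and neither passed the test, the former being 0.55 without control replicate 1. Blvra, the other biliverdin reductase, had 0.11 (SE 0.07, adjusted p = 0.466).

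Among the enzymes that remove superoxide and hydrogen peroxide, Cat, catalase, had signals of 2125, 1637 and 1254 in the control arrays, 3814, 3135 and 2432 with luteolin, 2920.0, 1869 and 1515 with LPS and 3015, 3534 and 2393 with both. The luteolin arrays lay above the control arrays, and with LPS the groups overlapped. Its log2 fold change was 0.73 (SE 0.19, adjusted p = 0.0725) over both backgrounds, with adjusted p = 0.00603 with the block, which also called it in resting microglia (0.91, adjusted p = 0.0490). Sod1, the cytosolic superoxide dismutase, had 0.09 (SE 0.07, adjusted p = 0.564). Sod2, the mitochondrial enzyme, was the member with the lowest luteolin difference, -0.36 (SE 0.11, adjusted p = 0.110). It was lower in all 6 same-number pairs and passed without luteolin + LPS replicate 3 (adjusted p = 0.0328), and its 3 other probe sets gave -0.34, -0.11 and 0.16.

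The 5 measured genes of the NADPH production role lay above 0 with luteolin on both backgrounds. Over all genes, 47.1% did so without LPS and 52.9% with LPS. Besides enzymes that make NADPH, the role takes in transaldolase and transketolase of the pentose phosphate pathway. Pgd, 6-phosphogluconate dehydrogenase of the pentose phosphate pathway, had signals of 4875, 6267 and 6519.9 in the control arrays, 8852, 9625 and 8483 with luteolin, 8220.0, 6112 and 5885 with LPS and 10419, 11022 and 12017 with both. Every array with luteolin lay above every array without it. It rose by 0.68 (SE 0.11, adjusted p = 0.0159) over both backgrounds, and its 3 other probe sets gave 0.63 to 0.86. Idh1, the cytosolic isocitrate dehydrogenase, had signals of 1678, 1728 and 1874 in the control arrays, 2732, 2224 and 2348 with luteolin, 1179, 1330.1 and 945 with LPS and 2015, 2424 and 2141 with both. The LPS arrays lay below the control arrays, and both groups with luteolin lay above both groups without it. Luteolin raised Idh1 by 0.70 (SE 0.10, adjusted p = 0.0112) over both backgrounds. Taldo1, transaldolase, had 0.60 (SE 0.23, adjusted p = 0.177) and Me1, malic enzyme, 0.36 (SE 0.15, adjusted p = 0.220), both passing with the block (adjusted p = 0.0349 and 0.0395). Tkt, transketolase, had 0.17 (SE 0.08, adjusted p = 0.308).

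**Figure D2:**
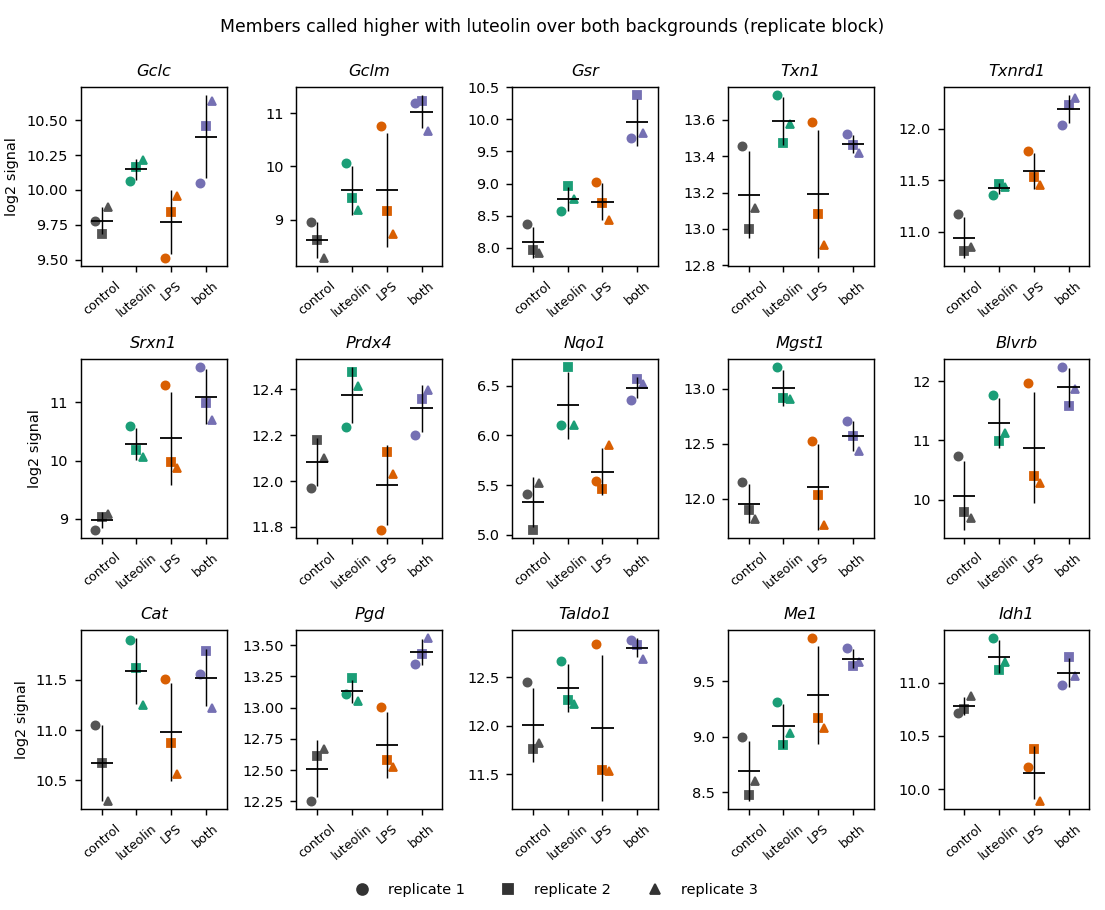
Log2 signal of each array for the 15 members called higher with luteolin over both backgrounds with the replicate block; "both" is luteolin + LPS, the symbol gives the replicate number, the horizontal line the mean and the vertical line 1 SD (n = 3). Gclc, Prdx4, Nqo1, Pgd and Idh1 are higher in every array with luteolin than in every array without it. LPS replicate 1 (circle) lies well above the other LPS arrays for Gclm, Srxn1, Blvrb, Taldo1 and Me1.

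Whether the luteolin response depended on LPS was asked with the interaction, the log2 fold change with LPS minus that without. Limma called 0 of 37 members and 0.00% of all genes, with or without the block (0.00% in both fits), with 3 members and 380 genes at an unadjusted p under 0.05. The members' median was -0.05, against 0.03 over all genes. The estimates ran from -1.14 for Slc7a11, with a 95% interval of -2.96 to 0.67 and a value of -0.33 without LPS replicate 1, to 0.56 for Gsr, with one of -0.10 to 1.23. For Idh1 the interval was 0.03 to 0.92 and for Mgst1 -1.17 to -0.01, neither being adjusted for the number of genes. With 3 arrays a group these intervals are wide, and equal responses on both backgrounds are not shown by them. Of the roles, the 5 genes of NADPH production had a median luteolin response of 0.40 without and 0.74 with LPS. The 9 genes of conjugation and detoxification had 0.21 without and -0.02 with LPS. These differences were not tested as groups.

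**Figure D3:**
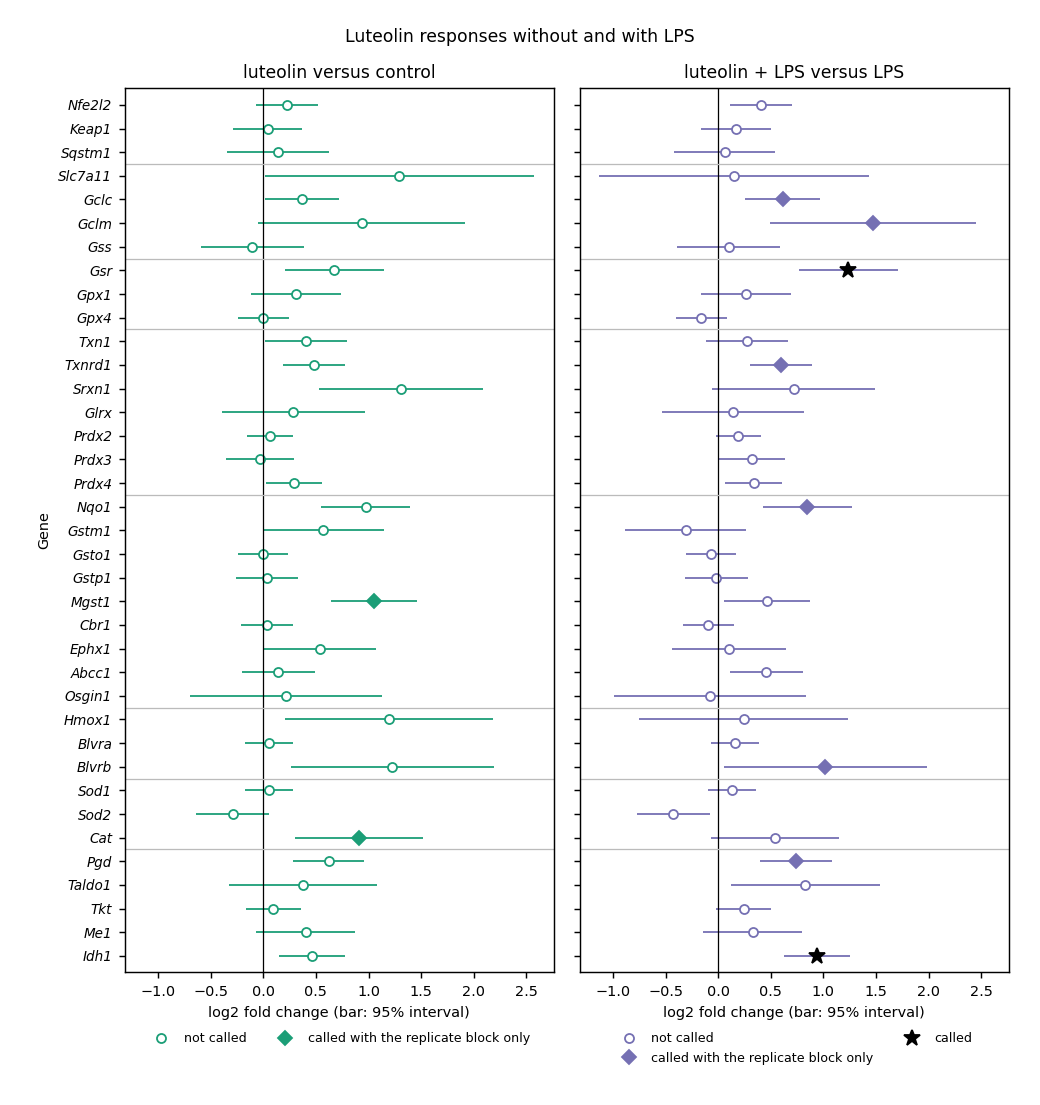
Log2 fold change of the 37 members with luteolin in resting microglia (left) and in LPS-treated microglia (right), with 95% intervals from limma and 3 arrays a group; open circles did not pass the test, diamonds passed with the replicate block only and stars passed without it. On the left 33 of 37 points lie above 0 and on the right 30 of 37, against 47.1% and 52.9% of all genes. The stars mark Gsr and Idh1.

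LPS alone raised Slc7a11, Txnrd1, Hmox1 and Sod2 and lowered Blvra and Idh1, 6 of the 37 members (limma, adjusted p under 0.05), beside 1.96% of all genes higher and 2.22% lower. With the block, 9 were higher and 2 lower, beside 4.30% and 6.78% of all genes, the additions being Sqstm1, Srxn1, Gstm1, Blvrb and Me1. The arrays of 9 members were higher without overlap and those of 5 lower, against 11.5% and 16.1% of all genes. The members' median was 0.18, against -0.04 over all genes, and 0.04 with the block and without the arrays of replicate 1. Of the 6, 1 was called without control replicate 3 or with only the groups compared, 2 without control replicate 2 or LPS replicate 1 and 3 without luteolin replicate 2 or LPS replicate 3.

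Sod2 had the smallest p of the members with LPS. Its signals were 2492, 2582 and 2338 in the control arrays, 1905, 2081 and 2074 with luteolin, 10548, 9555 and 10175 with LPS and 7538, 5799 and 9607 with both. The arrays with LPS lay above all arrays without it, and the luteolin arrays lay below the control arrays. LPS raised it by 2.03 (SE 0.16, adjusted p = 1.92e-04), and it was called under all 24 alternatives tried. Slc7a11, whose signals are given above, rose by 2.95 (SE 0.58, adjusted p = 0.0195), or by at least 2.88 with control replicate 2, which was under 50, set to 50. Without control replicate 2 or 3 its adjusted p was 0.0759 and 0.0756.

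The haem enzymes parted with LPS. Hmox1 rose by 1.97 (SE 0.45, adjusted p = 0.0365), a value that holds the low control replicate 1 and was 1.33 without it, and the call was lost without control replicate 3, any 1 luteolin array or any 1 LPS array (adjusted p from 0.0515 to 0.102). Blvra had signals of 5056, 4782 and 5150.1 in the control arrays, 5018, 5046 and 5519 with luteolin, 3244, 3939 and 3674 with LPS and 3954, 4110.0 and 4031 with both. All arrays with LPS lay below all arrays without it. It had a log2 fold change of -0.47 (SE 0.10, adjusted p = 0.0298), lost without any 1 control array, luteolin replicate 2 or LPS replicate 1 or 3 (adjusted p from 0.0538 to 0.110). Txnrd1 rose by 0.65 (SE 0.13, adjusted p = 0.0227) with LPS, lost without control replicate 2 or 3 or LPS replicate 1 (adjusted p from 0.0599 to 0.0921). Srxn1, with 1.41 (SE 0.35, adjusted p = 0.0506), passed with the block (adjusted p = 0.0131) and had 0.94 without LPS replicate 1. Blvrb, with 0.81, passed with the block (adjusted p = 0.0386), the 1 of 24 alternatives that called it, and had 0.27 (adjusted p = 0.732) without LPS replicate 1. The values of Gstm1 and Me1, 0.63 and 0.69, were 0.39 and 0.43 without this array.

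Idh1 was the only member called in opposite directions with LPS and with luteolin, and the 2 comparisons share the LPS arrays. LPS gave a log2 fold change of -0.62 (SE 0.14, adjusted p = 0.0367), and luteolin, in LPS-treated microglia, 0.94 (SE 0.14, adjusted p = 0.0232). The first was lost without any 1 control array, luteolin replicate 2 or 3, LPS replicate 1 or 3 or luteolin + LPS replicate 3 (adjusted p up to 0.122), and the second without LPS replicate 3 or luteolin + LPS replicate 2 (0.0838 and 0.0810). The second Idh1 probe set gave -0.72 and 0.94.

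**Figure D4:**
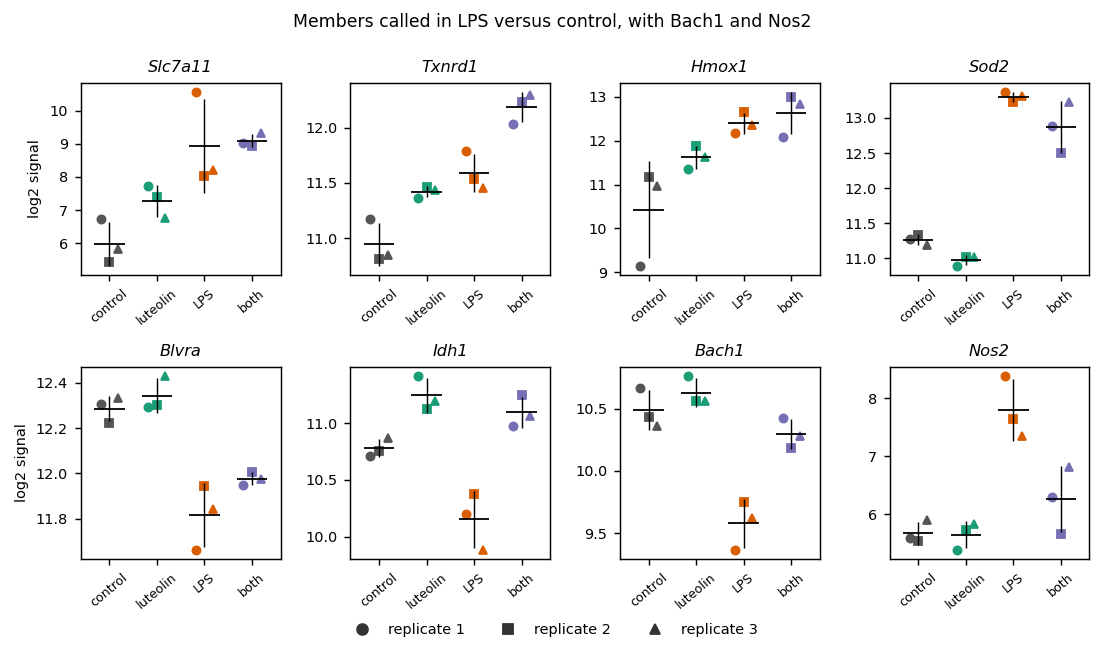
Log2 signal of each array for the 6 members called in LPS versus control, and for Bach1 and Nos2; "both" is luteolin + LPS, the symbol gives the replicate number, the horizontal line the mean and the vertical line 1 SD (n = 3). Blvra, Idh1 and Bach1 are lowest in the LPS arrays. Sod2, Slc7a11 and Hmox1 are higher in all arrays with LPS than without, and control replicate 1 lies far below the other control arrays for Hmox1.

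Of 50 other tested genes of these pathways, Bach1 and Oplah rose with luteolin over both backgrounds and none fell without the block, beside the 1.16% of all genes called higher and 1.92% called lower. Bach1, the repressor that competes with NRF2, had signals of 1628, 1385 and 1313 in the control arrays, 1739, 1509.5 and 1515 with luteolin, 660.1, 861 and 790.1 with LPS and 1378, 1165 and 1246 with both. The LPS arrays lay below all other arrays. In resting microglia the luteolin and control arrays overlapped, with geometric means of 1584 and 1436. It fell with LPS, with a log2 fold change of -0.91 (SE 0.13, adjusted p = 0.00442), and was higher by 0.72 (SE 0.13, adjusted p = 0.0493) in luteolin + LPS than in LPS arrays, the 2 comparisons sharing the LPS arrays. Fits with arrays left out were read for the members only, so calls of Bach1 and other genes outside the list were not checked in them. Oplah, 5-oxoprolinase of the glutathione cycle, rose by 0.47 (SE 0.11, adjusted p = 0.0486) over both backgrounds. It reached the minimum signal only through the groups with luteolin, so this call adds no support, and with signals under 50 set to 50 it had 0.19 (adjusted p = 0.237). With the block, Mafk, a small MAF partner, Glo1, glyoxalase 1, Mgst2 and Fech, ferrochelatase, were also higher, and Nfe2l1, Gstm2, Glrx2, Msra and Rpe were lower, 6 and 5 of the 50, beside 3.89% and 6.22% of all genes. The median luteolin response of the 50 was 0.01, with 27 above 0, against 0.31 and 32 of 37 for the members. Over all genes, 51.0% lay above 0. The members and lists were chosen with earlier results of these data known, so this difference is not evidence about the members. With LPS, Gstt1 and Nadk rose and Bach1, Sesn1, Mgst3 and Rpia fell, beside 1.96% and 2.22% of all genes, and with the block 3 were higher and 10 lower, beside 4.30% and 6.78%.

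The genes that make the oxidants were measured on the same arrays. Of the 6 tested, LPS raised Cybb, the catalytic subunit of the phagocyte NADPH oxidase, by 2.17 (SE 0.36, adjusted p = 0.00886). It raised Rac2, the GTPase of this oxidase, by 0.93 (SE 0.22, adjusted p = 0.0397). Nos2, the inducible nitric oxide synthase, rose by 2.12 (SE 0.31, adjusted p = 0.00378). Cyba, Ncf1 and Ncf4 did not pass, and 1.96% of all genes were called higher with LPS. These calls, too, were not checked with arrays left out. Nos2 had signals of 48, 46.2 and 59.7 in the control arrays, 41.8, 52.8 and 57.2 with luteolin, 335, 201 and 163 with LPS and 79, 50.6 and 112 with both. The luteolin + LPS arrays lay below the LPS arrays without overlap, with a log2 fold change of -1.54 (SE 0.31, adjusted p = 0.0553) that passed with the block (adjusted p = 0.0312). All 6 lay below 0 with luteolin in LPS-treated microglia, where 52.9% of all genes lay above 0. Without the block 0 of 6 passed (1, Nos2, at an unadjusted p under 0.05). The median of the 6 was -0.25, -0.75 and -0.04 in replicate numbers 1, 2 and 3.

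Srxn1, Blvrb and Hmox1, and Gclm with LPS, are also in the lists of changed genes that the study drew from these same arrays. Their direction here is therefore not independent evidence. The study also measured these genes by qRT-PCR and reported them induced by luteolin, and reported lower Nos2 mRNA when luteolin was given with LPS. Those measurements were not re-examined here.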

How the data were processed

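The deposited values, per the file headers and the paper's methods, are linear intensities that the authors made from the scanned arrays with the RMA algorithm in Affymetrix Expression Console 1.0 (background correction, quantile normalization, median polish). Their log2 was taken. Of 45101 probe sets, 34958 named 1 gene, 932 several and 9211 none here. A gene's brightest probe set on average was used, and 6123 of 18194 genes with a mean signal under 50 in all conditions were left out. The 4 group means were fitted over the 12 arrays (limma 3.58.1, R 4.3.3), without a block, and p-values were adjusted by Benjamini-Hochberg over 12071 genes (threshold 0.05). The luteolin effect over both backgrounds is the mean of both luteolin contrasts. Replicate numbers come from the labels. Same-number arrays correlated in all 18 pairs (lowest r = 0.101, median 0.42, against -0.295 between numbers), which was taken as pairing. Deviations from a group mean cancel within the group, so the negative value between numbers largely follows from the positive one and is no separate evidence. The alternatives were the block, fixed or random, the rule for probe sets, the filter, equal array medians, a floor of 50, array weights, pairwise fits and each array left out. Leaving out a replicate number was added after the data had been seen. The fit was tested on simulated data. Members and lists were chosen with earlier results of these data known. Signal was given in every array for members called without the block and, in each role, for the member with the largest luteolin effect; other genes were named where luteolin changed them, and the block's additions, the LPS-called pathway genes and the oxidant producers were named after their values were seen. On labelling the sources differ, the labels describing sense-strand DNA and the methods cRNA. Promoters are RefSeq's, and Python 3.11.15 with matplotlib 3.10.9 drew the figures.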

Additional observations from a re-analysis of the deposited data

Results flagged for a closer look

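Gstm1 was higher with luteolin in all 3 same-number pairs of resting microglia and lower in all 3 pairs of LPS-treated microglia, which singled it out. Its luteolin response was 0.57 without LPS and -0.31 with LPS, a difference of -0.88 on the log2 scale. The limma interaction did not pass (adjusted p = 0.999, and 0.599 with the replicate block), so a difference between the backgrounds is not shown. LPS replicate 1, at 8199, was the highest of the 12 arrays for this gene, and luteolin + LPS replicate 2, at 3238, the lowest. No outlier test was run within groups of 3 arrays.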

How the results depend on the processing

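Across 4360 recomputed values of 185 gene and comparison pairs, 3999 stayed called, or stayed not called and moved by less than the replicate spread. For values called in both fits the size of the move was not checked. Of the rest, 125 newly passed, 87 no longer passed and 149 moved by the spread or more without a call. No called value changed sign, but 160 values that were not called did, in 47 of the pairs. In luteolin + LPS versus LPS the value of Ephx1 ran from -0.11 to 0.40 and that of Slc7a11 was -0.32 at its lowest, and over both backgrounds Osgin1 ran from -0.23 to 0.26. The members' median log2 fold change moved by less than the replicate spread in every comparison and alternative tried.

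The number of members called moved as follows. In luteolin versus control it was 2 with the replicate block, 1 with the random block and 16 with array weights, against 0. In luteolin + LPS versus LPS it was 8 with the replicate block, 7 with the random block, 7 with array weights and 0 with only the groups compared, against 2. In LPS versus control it was 11 with the replicate block, 16 with array weights and 1 with only the groups compared, against 6. For luteolin over both backgrounds it was 15 with the replicate block, 13 with the random block and 20 with array weights, against 7. With each array left out it ran from 0 to 5 in luteolin + LPS versus LPS, from 1 to 7 in LPS versus control and from 4 to 14 for luteolin over both backgrounds. With the replicate block and without all arrays of replicate 1, 2 or 3 it was 13, 0 and 0 in luteolin + LPS versus LPS, 6, 3 and 1 in LPS versus control, and 20, 0 and 0 for luteolin over both backgrounds. These fits rest on 2 arrays a group. The share of all genes called was counted only without a block and with the fixed replicate block. Counts of members under the other alternatives therefore cannot be set against all genes. The causes were not tested.

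With 3 arrays a group the precision is low. Nqo1, Slc7a11, Oplah and Nos2 lie near the minimum signal in some conditions. With signals under 50 set to 50, the LPS difference of Nqo1 was 0.09 against 0.30.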
